A study of Rattus norvegicus with 8 samples.

Results

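The non-irradiated osteoblast-like cells are the control cultures of a study of Er:YAG laser irradiation, and they were 4 of the 8 arrays of the series, chosen by their label alone. The cells were released by serial enzymatic digestion from calvariae of Wistar rats aged 3 to 5 days, after the periosteum had been removed, and cells of the later digestions were grown and passaged to 35-mm dishes. These cultures received 0 J/cm2 and were collected at 6 h, the time point of the irradiated dishes, which are not described here. Total RNA (200 ng) of each culture was labeled with Cy3 and hybridized to 1 single-color array. No strain other than Wistar, transgene or drug distinguished the cultures. The labels describe a growth medium with 10% fetal bovine serum and an osteoinduction medium that adds ascorbic acid (50 μg/mL), β-glycerophosphate (10 mM) and dexamethasone (10 nM), and the study's methods state that its dishes for RNA were refilled with the latter after irradiation, in a passage on PCR that does not name the arrays. The labels do not say whether the 4 cultures came from separate animals or litters, although their deposited files carry different rat numbers. Each culture has 1 array, so the spread between cultures may be partly technical, and that part cannot be set apart. The samples are called cultures 1 to 4 after their replicate numbers, which carry no order. As a model the preparation is limited by being a mixed primary isolate that was not sorted, and the study itself calls the cells osteoblast-like.

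Osteoblasts arise from mesenchymal precursors through the transcription factors Runx2 and, after it, Sp7 (osterix). They lay down a matrix that consists mainly of type I collagen, and they then mineralize it with the help of tissue-nonspecific alkaline phosphatase (Alpl), which releases phosphate. In the flat bones of the skull this happens without a cartilage template, and the digest of a calvaria also holds suture cells, fibroblasts, blood vessels, blood cells and fragments of neighbouring tissues.

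Each gene is read on this array by 60-base probes, and the first 30 bases of the probes of the 5 defining osteoblast genes are printed here because every statement on these genes rests on how those probes hybridized. They are written 5′ to 3′ with the rn4 position on the array design, and no base is marked. Col1a1, which encodes the α1 chain of type I collagen, was read at chr10:83639260-83639319 on the plus strand, Runx2 at chr9:12025100-12025159 on the plus strand, Sp7 at chr7:141109948-141110007 on the minus strand, Alpl at chr5:156501741-156501800 on the minus strand, and Spp1, which encodes the secreted matrix phosphoprotein osteopontin, at chr14:6422382-6422441 on the minus strand. The exon or UTR at these positions is not given, since no annotation of that build was used here.
Col1a1: gtgggaggaagcaagagactctgtacctat
Runx2: gggactatttgtattgtatgttgcaactgt
Sp7: ttcacctgtctgctctgctccaagcgcttt
Alpl: atttctctttttggtgttggttaaaaggga
Spp1: taagagtaaggaagatgataggtatctgaa

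Each array carried 58717 spots of 45598 rat probes, and 0 spots were saturated. The median processed signal of the arrays lay between 56.2 and 72.6. A probe was called detected on an array when the scanner software marked over 50% of its spots as well above background, and 26537 to 29906 probes were detected per array. The array of culture 4 had both the lowest median signal and the fewest detected probes. The signals given below are log2 values of the background-corrected intensity after quantile normalization over these 4 arrays, so that 1 unit is a doubling of signal, and errors are SDs over the 4 cultures. The number of arrays limits the precision of every SD. All 4 arrays lay on 1 slide and were read on 1 scan day. The level of one probe was not ranked against that of another, because probes respond differently to the same RNA. For example, the 8 probes of the glycolytic gene Gapdh, all detected on all 4 arrays, had mean signals from 9.31 to 16.17. Where a gene is named as the brightest or dimmest of its list, this describes its probe and not the amount of its RNA.

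Culture 1 stood apart from the others. Across the 24969 probes detected on all 4 arrays, Pearson's r was 0.994 between cultures 2 and 3, 0.989 between cultures 2 and 4 and 0.992 between cultures 3 and 4, but 0.980, 0.978 and 0.972 between culture 1 and cultures 2, 3 and 4, where probes of one array share its RNA and are not independent. Culture 1 held the value furthest from the median for 53.8% of these probes, against 12.9%, 10.8% and 22.4% for cultures 2, 3 and 4. Results are therefore given per culture, and where the SD printed after the values of the 4 cultures was over 1.5 times that of cultures 2 to 4, the latter is printed too. Among the 13763 detected genes, culture 1 lay over 1 log2 unit below each other culture for 3.98% and over 1 unit above each of them for 3.65%. The same shares were 0.0509% and 0.334% for culture 2, 0.0436% and 0.0218% for culture 3, and 0.523% and 1.28% for culture 4. Culture 1 was the highest for 42.6% of these genes and the lowest for 33.3%, culture 3 was the highest for 19.3%, and culture 4 was the highest for 26.1% and the lowest for 31%. These shares are the background for the counts of list members given below.

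Of the 45598 rat probes, 24969 (54.8%) were detected on all 4 arrays and 13295 on none. The probes named 21142 genes, of which 13763 (65.1%) had at least 1 probe detected on all 4 arrays, 2828 were detected on 1 to 3 arrays only and 4551 (21.5%) on no array. The share of 65.1% is the background for every count of detected list members given below, and a count near it does not set a list apart. The median signal of the detected genes was 9.03. A gene is represented below by its brightest detected probe. Of the 5715 detected genes with several probes, 2270 also had a probe that was not detected on all 4 arrays, so that detection depends on which probe is read. Among the genes given below with their values this was the case for Ptger3, Ptger4, Bmpr1a, Il1rl1, Gusb, Hspa1a, Itgb3, Lyz2, Tyrobp, Vwf, Cd36, Gfap, Cldn11, Krt18 and Tfcp2l1.

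**Figure D1:**
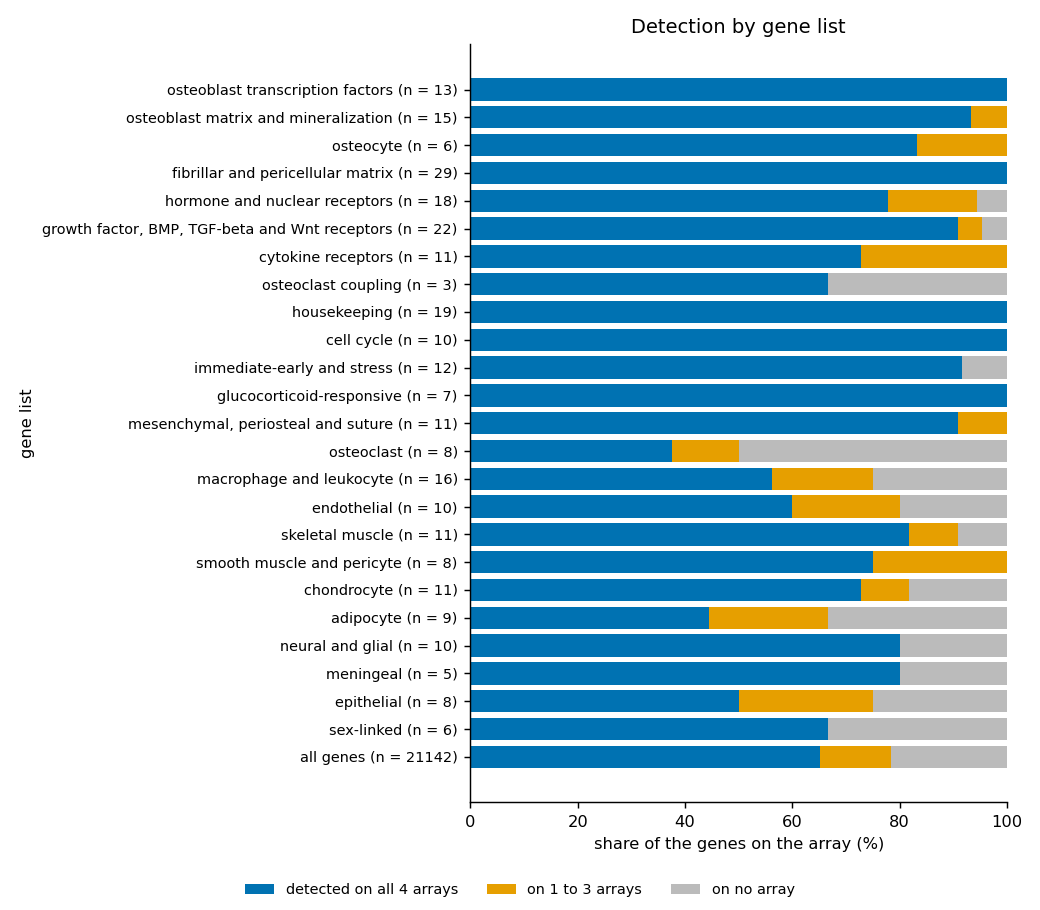
Share of the genes of each list that were detected on all 4 arrays, on 1 to 3 arrays or on no array, with the number of genes on the array in parentheses. All osteoblast transcription factors on the array were detected, whereas 3 of 8 osteoclast genes were, beside 65.1% of all genes.

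All 5 defining osteoblast genes were detected in every culture, beside 65.1% of all genes. Since 8 of 11 chondrocyte genes and 9 of 11 skeletal muscle genes were also detected, detection alone does not identify the cells. Col1a1 gave signals of 18.22, 18.11, 18.20 and 18.28 in cultures 1 to 4 (18.20 ± 0.07, SD, n = 4), and its second probe gave 17.12 ± 0.14. The cultures thus barely differed in the signal of the main collagen gene of bone. Spp1 gave 14.26, 14.48, 14.33 and 14.73 (14.45 ± 0.21). Runx2 gave 11.49, 10.61, 10.88 and 10.42 (10.85 ± 0.46, and 0.23 over cultures 2 to 4), with culture 1 highest. Sp7, which acts downstream of Runx2, gave 5.46, 4.88, 4.73 and 5.36 (5.11 ± 0.36), so that cultures 1 and 4 were the higher pair. Alpl was the marker with the widest spread, at 10.93, 10.14, 10.33 and 8.41 (9.95 ± 1.08). Culture 4 lay below each other culture by over 1 unit, and the second Alpl probe, at 7.58, 7.81, 8.27 and 6.63, was also lowest in culture 4.

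**Figure D2:**
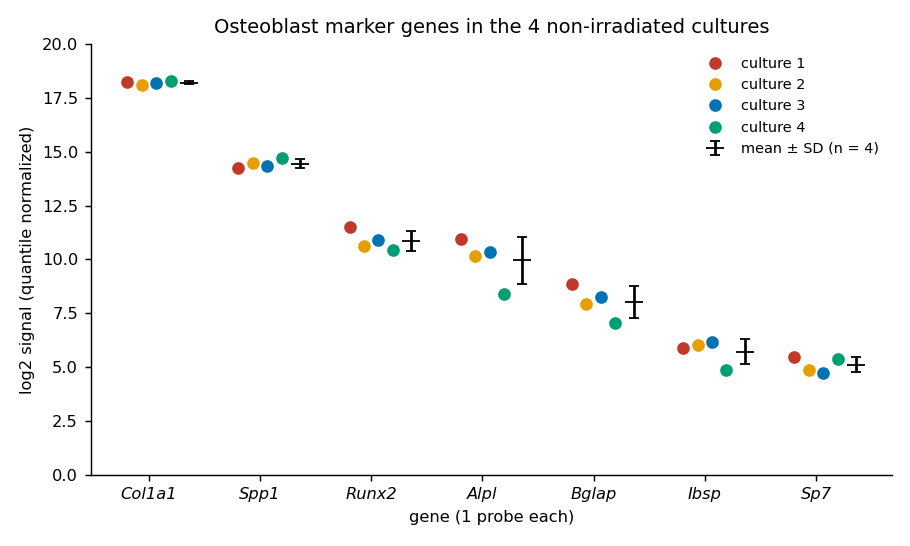
Quantile-normalized log2 signal of 7 osteoblast genes in the 4 non-irradiated cultures, 1 colored point per culture, with the mean ± SD in black. The points of Col1a1 lie between 18.11 and 18.28, while culture 4 lies lowest for Alpl, Bglap and Ibsp.

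All 13 osteoblast transcription factors that the array names were detected in every culture, beside 65.1% of all genes, while Dlx6 was not found on the array by name. The homeodomain factors Dlx5 (10.67 ± 0.27), Msx1 (12.15 ± 0.62) and Msx2 (12.81 ± 0.36), the Runx2 partner Cbfb (10.59 ± 0.34) and the stress-responsive factor Atf4 (14.35 ± 0.26) were among them. Twist1, which restrains Runx2 in skull precursors, had the smallest spread of the list, at 10.87, 10.90, 11.07 and 10.90 (10.94 ± 0.09). Twist2 was the dimmest, at 3.90, 4.37, 4.19 and 4.69 (4.29 ± 0.33). Msx2 was lowest in culture 1, at 12.35, while Msx1 was highest there, at 12.99. The median SD of the list was 0.34, against 0.29 for all detected genes.

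The largest SD of these factors belonged to the single probe of Dlx3, a homeodomain factor of bone and skin, at 17.89, 18.29, 15.76 and 16.06 (17.00 ± 1.28). Cultures 1 and 2 lay above cultures 3 and 4 by well over 1 unit, a split that Runx2, Dlx5 and the Msx genes did not show. Of all 24969 detected probes, 84 had both culture 1 and culture 2 over 1 unit above both others, and 9 had the opposite split. Among those 84 were 38 of the 2497 brightest probes. Of the 38, 25 (65.8%) held CCCC on the probe strand, against 11.7% of the 2497 brightest and 11.9% of all detected probes, and their median GC content was 63.3%, against 43.3% for all detected probes. Over all 84 the median GC content was 47.5% and 40.5% held CCCC. Most probes with CCCC did not split, since 34 of the 2976 detected ones (1.14%) did, against 0.227% of those without CCCC. The Dlx3 probe itself had a GC content of 45%, the Mmp15 probe 48.3% and the Pdxp probe 55%. Of the 319 detected probes with a GC content of 60% or more, 21 (6.58%) had the split, against 0.163% of those below 40%. The probes of Dlx3, of the membrane-type matrix metalloproteinase gene Mmp15 and of the pyridoxal phosphatase gene Pdxp are printed to show these runs, with 4 or more C in a row in capitals in their first 30 bases. Their rn4 positions are chr10:83807487-83807546 on the plus strand, chr19:10122572-10122631 on the minus strand and chr7:116886140-116886199 on the plus strand. Only the letters CCCC were searched, on the 60 bases as given. Mmp15 gave 17.10, 17.79, 14.93 and 15.30, and Pdxp gave 16.02, 16.93, 13.84 and 14.31. What part base composition has in the Dlx3 signal was not tested, and the probes were chosen after their values were seen.
Dlx3: aCCCCtCCCCCgccttcccatttctgcttt
Mmp15: CCCCCtCCCCgcatcgtttagttctgtaaa
Pdxp: gcgggaccgtcccaCCCCCtccgcctgttg

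Of the 15 genes for bone matrix and mineralization, 14 were detected in every culture. Phospho1, a phosphatase of matrix vesicles, was detected on 1 array. Beside Col1a1, the structural genes Col1a2 (17.54 ± 0.12) and Sparc, which encodes osteonectin (17.50 ± 0.20), had SDs below the 0.29 of the median gene. The transporters and enzymes that set phosphate and pyrophosphate, Enpp1 (13.03 ± 0.40), Ankh (9.25 ± 0.23), Slc20a1 (12.49 ± 0.32) and Slc20a2 (13.78 ± 0.21), were detected as well. Omd, a small proteoglycan gene of bone, gave 11.61, 13.25, 13.46 and 11.90 (12.56 ± 0.93), with cultures 2 and 3 as the higher pair.

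Other members had wider spreads. Bglap, which encodes osteocalcin, gave 8.84, 7.92, 8.24 and 7.07 (8.02 ± 0.74), and Mgp, whose product inhibits calcification, gave 15.68, 15.02, 15.19 and 13.51 (14.85 ± 0.94). Ibsp, the bone sialoprotein gene, was the dimmest of the list, at 5.87, 6.01, 6.16 and 4.85 (5.72 ± 0.60). Bglap, Mgp and Ibsp were all lowest in culture 4. Alpl, Mgp and Ibsp lay there over 1 unit below each other culture, which is 3 of 14 detected members beside 0.523% of all detected genes. Spp1, Col1a1 and Col1a2 were highest in culture 4, so that the list had no common direction, and its median difference of culture 4 from the others was -0.06.

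Osteocyte genes mark the last stage of the lineage, when cells are buried in matrix. Of the 6 genes listed, 5 were detected in every culture, and Phex, an endopeptidase gene of phosphate balance, was detected on 1 array. Pdpn, an early osteocyte gene that other cells also express, gave 15.22, 15.18, 15.20 and 15.29 (15.22 ± 0.05). Dmp1, a regulator of matrix mineral, had the widest spread, at 6.02, 5.32, 4.96 and 4.45 (5.19 ± 0.66, and 0.44 over cultures 2 to 4). Fgf23, the phosphate-lowering hormone of osteocytes, was the dimmest, at 4.98, 5.15, 4.59 and 5.00 (4.93 ± 0.24), and the Wnt antagonist Sost gave 5.06 ± 0.27. These values lie close to the lowest signals called detected, which were between 3.39 and 4.02 depending on the array. Mepe gave 10.06 ± 0.19.

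All 29 genes of the fibrillar and pericellular matrix were detected in every culture. The small proteoglycan gene Bgn gave 18.56, 18.32, 18.66 and 18.47 (18.50 ± 0.14), Fn1 gave 17.43 ± 0.09 and Col3a1 gave 17.38 ± 0.35. The metalloproteinase inhibitor gene Timp2 was among the steadiest, at 17.81, 17.69, 17.76 and 17.68 (17.73 ± 0.06). Collagenase-3, encoded by Mmp13 and known from osteoblasts and hypertrophic chondrocytes, was the dimmest, at 7.07, 7.42, 7.54 and 5.61 (6.91 ± 0.89), with culture 4 lowest. Of the 29 genes, 20 had their highest value in culture 1, beside 42.6% of all detected genes, and the median difference of culture 1 from the others was 0.45, against 0.07 for all detected genes. Elastin (Eln) varied most, at 13.98, 11.79, 11.08 and 10.24 (11.77 ± 1.60, and 0.77 over cultures 2 to 4). Postn, a gene of periosteum and tendon, gave 11.06, 9.33, 8.76 and 8.87 (9.50 ± 1.07, and 0.30 over cultures 2 to 4). With Fmod and Timp3, 4 members lay over 1 unit above the others in culture 1, beside 3.65% of all detected genes. Lum and Dcn, which encode small leucine-rich proteoglycans as Bgn does, were instead lowest in culture 1, at 10.28 and 10.63.

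Among hormone and nuclear receptors, 14 of 18 genes were detected in every culture, beside 65.1% of all genes. Pth1r, the receptor through which parathyroid hormone acts on osteoblasts, gave 12.51, 12.84, 12.75 and 12.72 (12.70 ± 0.14, and 0.07 over cultures 2 to 4). The vitamin D receptor gene Vdr gave 7.27, 6.41, 6.54 and 6.59 (6.70 ± 0.39, and 0.09 over cultures 2 to 4), and the glucocorticoid receptor gene Nr3c1 gave 8.41 ± 0.28. The retinoic acid receptor gene Rarg was the brightest, at 14.62, 14.91, 14.96 and 14.22 (14.68 ± 0.34). The estrogen receptor gene Esr1 was detected on 3 arrays and Esr2 on 2. Calcr, the calcitonin receptor gene that marks osteoclasts, was detected on no array, and the calcium-sensing receptor gene Casr was detected on 1. For prostaglandin E receptors, Ptger4 gave 11.18, 9.19, 8.95 and 9.18 (9.63 ± 1.05, and 0.14 over cultures 2 to 4), and Ptger3, with the largest SD of the list, gave 8.27, 7.34, 6.10 and 6.07 (6.94 ± 1.07). Ptger1 was the dimmest detected member, at 4.55, 4.58, 4.11 and 4.44 (4.42 ± 0.21).

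Receptors for growth factors, BMPs, TGF-β and Wnts were detected in every culture for 20 of 22 genes. These included the BMP receptors Bmpr1a (11.16 ± 0.10), Bmpr1b (8.42 ± 0.55), Bmpr2 (7.54 ± 0.38) and Acvr1 (13.51 ± 0.41), the Wnt co-receptors Lrp5 (9.20 ± 0.27) and Lrp6 (9.02 ± 0.28), and the PDGF receptors Pdgfra (13.75 ± 0.38) and Pdgfrb (11.66 ± 0.22). Tgfbr3, a TGF-β co-receptor gene, was detected on no array and Fgfr4 on 2. Igf2r, which clears IGF-II, was the brightest, at 15.82, 15.18, 15.17 and 15.10 (15.32 ± 0.34, and 0.04 over cultures 2 to 4). The insulin receptor gene Insr was the dimmest, at 4.52, 4.26, 4.79 and 4.50 (4.52 ± 0.22). Fgfr2, an osteoblast receptor of the sutures, gave 15.19 ± 0.22, whereas Fgfr3, a receptor of growth cartilage, had the largest SD, at 7.07, 8.88, 9.13 and 8.75 (8.46 ± 0.94, and 0.20 over cultures 2 to 4). Culture 1 lay over 1 unit below each other culture for Fgfr3 alone in this list.

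Of 11 cytokine receptor genes, 8 were detected in every culture, beside 65.1% of all genes. Il6st, the signal-transducing chain shared by the IL-6 family, gave 14.71, 14.35, 14.40 and 14.45 (14.47 ± 0.16, and 0.05 over cultures 2 to 4), while Lifr was detected on 3 arrays, Osmr on 2 and the chemokine receptor gene Cxcr4 on 1. Ifnar1, a chain of the interferon-α/β receptor, was the dimmest detected member, at 5.15, 5.33, 5.38 and 5.37 (5.31 ± 0.11, and 0.03 over cultures 2 to 4). Il1rl1, the IL-33 receptor gene, varied most, at 14.61, 13.18, 12.72 and 13.20 (13.43 ± 0.82, and 0.27 over cultures 2 to 4), with culture 1 highest by over 1 unit.

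Osteoblasts control osteoclasts through RANKL (Tnfsf11), its decoy receptor osteoprotegerin (Tnfrsf11b) and M-CSF (Csf1). The Tnfsf11 probe, at chr15:59397916-59397975 on the minus strand of rn4, was well above background on no array, and its measured signal was 1.41 on average. Its first 30 bases are shown because the statement rests on this 1 probe.
Tnfsf11: ttattccataaacgttggaggatttttcaa
Tnfrsf11b gave 10.31, 10.18, 10.37 and 9.38 (10.06 ± 0.46), lowest in culture 4. Csf1 gave 12.50, 11.85, 11.88 and 11.83 (12.01 ± 0.32, and 0.03 over cultures 2 to 4).

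All 19 housekeeping genes were detected, with a median SD of 0.18 against 0.29 for all detected genes. The probes shown for these genes were bright, with a median signal of 15.82 against 9.03 for all detected genes. The 6242 brightest detected probes had a median SD of 0.22, which is the closer background for this list. Rpl13a, a ribosomal protein gene often used as a reference, was the steadiest of the 19 genes on its brightest probe. It gave 17.90, 17.90, 17.87 and 17.94 (17.90 ± 0.03). Further Rpl13a probes had SDs of 0.08 and 0.04. The dimmest Rpl13a probe, however, gave 11.59, 12.97, 12.88 and 12.92, with culture 1 lowest by over 1 unit, so the steadiness depends on the probe read. The dimmest Rps18 probe (12.58, 14.17, 14.23 and 14.07) had culture 1 lowest by over 1 unit too. So did those of Ppia (13.73, 14.90, 14.96 and 15.14) and Ldha (10.03, 11.68, 11.80 and 12.42). Each of these probes lay further upstream on its strand than the brightest probe of its gene. The dimmer probes of Polr2a and Tbp were not lowest in culture 1. What part probe position has in the differences of culture 1 was not tested. Rps18 was the brightest, at 18.57, 18.57, 18.92 and 18.99 (18.76 ± 0.23), and Sdha gave 13.04 ± 0.06. Other common reference genes were not level. Gapdh gave 15.85, 16.15, 16.13 and 16.54 (16.17 ± 0.28), and Actb gave 15.24, 15.91, 15.84 and 16.30 (15.82 ± 0.44, and 0.25 over cultures 2 to 4), both lowest in culture 1 and highest in culture 4, as were all 8 probes of Gapdh. B2m was highest in culture 1, at 14.90, against 13.88 to 14.02 in the others. The transferrin receptor gene Tfrc varied most, at 8.10, 9.34, 9.43 and 9.75 (9.15 ± 0.72, and 0.21 over cultures 2 to 4), and Gusb was the dimmest, at 5.76, 6.59, 6.66 and 6.69 (6.42 ± 0.45, and 0.05 over cultures 2 to 4). Tfrc lay over 1 unit below each other culture in culture 1.

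Cell cycle genes were all detected, and all 10 had their highest value in culture 4, beside 26.1% of all detected genes. Mki67, which marks cycling cells, gave 12.13, 12.01, 12.08 and 13.56 (12.45 ± 0.75), and its other 3 probes were also highest in culture 4. Cdk1, the mitotic kinase gene, was the brightest of the list, at 13.95, 14.20, 14.26 and 15.60 (14.50 ± 0.74). Top2a, a topoisomerase gene of dividing cells, gave 6.72, 8.03, 8.08 and 9.85 (8.17 ± 1.28) and was lowest in culture 1, and Aurkb was the dimmest, at 4.70, 5.29, 5.50 and 6.74 (5.56 ± 0.86). For Mki67, Top2a, Ccnb1, Cdk1, Ccna2 and Aurkb, culture 4 lay over 1 unit above each other culture, which is 6 of 10 members beside 1.28% of all detected genes. The median difference of culture 4 from the others was 1.47 over the list. The same culture was the lowest in Alpl, Mgp, Ibsp and Bglap, and whether these differences are related was not tested.

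**Figure D3:**
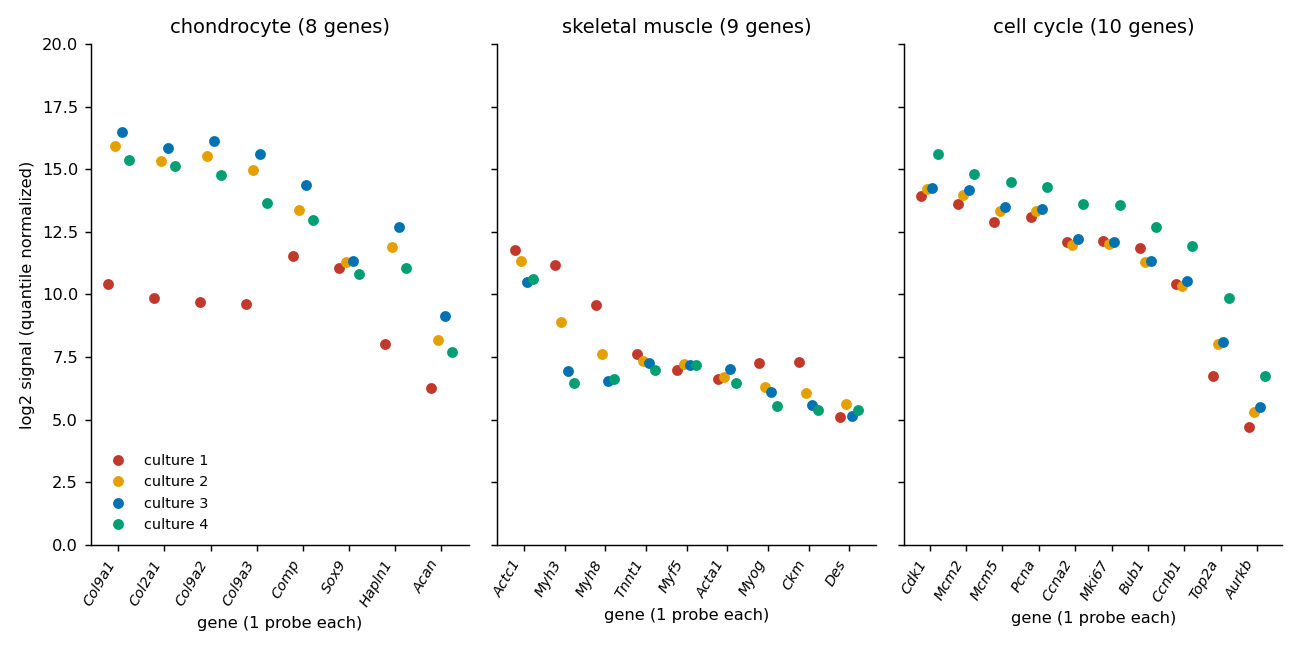
Quantile-normalized log2 signal of the detected chondrocyte, skeletal muscle and cell cycle genes, 1 colored point per culture. Culture 1 lies far below the others for 7 of 8 chondrocyte genes, culture 4 lies above the others for all 10 cell cycle genes, and culture 1 lies highest for Myh3, Myh8 and Ckm.

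Of 12 immediate-early and stress genes, 11 were detected in every culture, and the heat shock gene Hspa1b on none. Hspa5, the chaperone gene of the endoplasmic reticulum, gave 16.16, 16.01, 16.06 and 15.93 (16.04 ± 0.10). Fos gave 6.97 ± 0.17 and Jun gave 13.29 ± 0.40. Junb was the dimmest, at 3.83, 3.77, 4.79 and 4.79 (4.29 ± 0.57). The inducible heat shock gene Hspa1a varied most, at 11.20, 9.89, 9.56 and 9.71 (10.09 ± 0.75, and 0.16 over cultures 2 to 4), with culture 1 highest by over 1 unit.

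All 7 glucocorticoid-responsive genes were detected. Fkbp5, an immunophilin gene that glucocorticoids raise in many cells, gave 13.94, 14.37, 14.32 and 13.81 (14.11 ± 0.28). Dusp1 was the dimmest, at 6.22, 6.67, 6.80 and 6.13 (6.45 ± 0.33). Tsc22d3, which encodes the leucine zipper protein GILZ, varied most, at 13.62, 12.81, 12.90 and 12.54 (12.97 ± 0.46, and 0.19 over cultures 2 to 4). Of the 7 genes, 6 were lowest in culture 4, beside 31% of all detected genes, with a median difference from the others of -0.57, against -0.04 for all detected genes.

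Genes of mesenchymal, periosteal and suture cells were detected in every culture for 10 of 11. S100a4 was the brightest, at 18.16, 18.10, 18.03 and 18.31 (18.15 ± 0.12), Prrx1, a limb and skull mesenchyme factor, gave 13.72 ± 0.19, and Thy1 gave 12.66 ± 0.17. The tendon factor Scx gave 15.35, 14.25, 13.99 and 14.55 (14.53 ± 0.59, and 0.28 over cultures 2 to 4). Gli1, a hedgehog target used as a marker of suture stem cells, was detected on 1 array, and Axin2, a Wnt target, was the dimmest detected member, at 4.90, 4.70, 4.65 and 4.53 (4.70 ± 0.15, and 0.09 over cultures 2 to 4). Ctsk, a protease gene of osteoclasts and of periosteal stem cells, varied most, at 14.51, 13.08, 13.03 and 12.74 (13.34 ± 0.80, and 0.18 over cultures 2 to 4).

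Of 8 osteoclast genes, 3 were detected in every culture, or 5 with the scanner's less strict flag for a positive and significant signal, and Dcstamp, Tnfrsf11a (RANK), Oscar and Atp6v0d2 on none. The detected ones, Acp5, Nfatc1 and Itgb3, are also expressed outside osteoclasts. Nfatc1 gave 13.60, 13.04, 13.18 and 12.60 (13.10 ± 0.41), Acp5 gave 12.41, 11.51, 11.48 and 10.96 (11.59 ± 0.60, and 0.31 over cultures 2 to 4), and Itgb3 gave 6.13, 5.84, 5.51 and 5.50 (5.74 ± 0.30, and 0.19 over cultures 2 to 4). All 3 were highest in culture 1 and lowest in culture 4, beside 42.6% and 31% of all detected genes.

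Ptprc, the pan-leukocyte gene that encodes CD45, was detected on no array, as was the T cell gene Cd3e. Of the 16 macrophage and leukocyte genes, 9 were detected in every culture, beside 65.1% of all genes, or 14 with the less strict flag. The 9 included the complement gene C1qb (7.59 ± 0.24), Cd68 (7.08 ± 0.29) and Tyrobp (6.11 ± 0.43), while Csf1r was detected on 2 arrays and Adgre1 on 3. Cd14 was the brightest, at 9.32, 10.06, 10.06 and 10.08 (9.88 ± 0.37, and 0.01 over cultures 2 to 4), and C1qa the dimmest, at 4.81, 4.80, 4.27 and 4.26 (4.53 ± 0.31). Lyz2 varied most, at 8.20, 5.89, 5.79 and 4.81 (6.17 ± 1.43, and 0.60 over cultures 2 to 4).

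Endothelial genes were detected in every culture for 6 of 10, beside 65.1% of all genes. Tie1 and Emcn, both restricted to endothelium in most tissues, were detected on no array, whereas Pecam1 was the dimmest detected member, at 4.62, 4.11, 4.15 and 4.71 (4.40 ± 0.31). Tek, the angiopoietin receptor gene, gave 8.23, 5.92, 5.85 and 6.57 (6.64 ± 1.11, and 0.40 over cultures 2 to 4), and the VEGF receptor gene Kdr gave 9.46, 8.85, 7.60 and 7.08 (8.25 ± 1.10). A probe of Vwf was the brightest, at 13.09, 13.62, 12.72 and 12.73 (13.04 ± 0.42), while the other Vwf probe was detected on no array. The 2 probes therefore gave no common answer on Vwf.

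Skeletal muscle genes were detected in every culture for 9 of 11, with the satellite cell gene Pax7 on no array and Myod1 on 2. Myh3, the embryonic myosin heavy chain gene, varied most, at 11.18, 8.89, 6.95 and 6.46 (8.37 ± 2.15, and 1.29 over cultures 2 to 4). The perinatal myosin gene Myh8 gave 9.59, 7.61, 6.54 and 6.62 (7.59 ± 1.42, and 0.59 over cultures 2 to 4), and the muscle creatine kinase gene Ckm gave 7.31, 6.06, 5.59 and 5.38 (6.09 ± 0.87, and 0.35 over cultures 2 to 4). For these 3 of 9 members culture 1 lay over 1 unit above each other culture, beside 3.65% of all detected genes, and the median difference of culture 1 from the others was 0.96 over the list. Actc1 was the brightest, at 11.79, 11.35, 10.49 and 10.63 (11.06 ± 0.61), Myf5 gave 7.15 ± 0.10, and Des was the dimmest, at 5.12, 5.61, 5.17 and 5.40 (5.32 ± 0.23). Muscle genes outside the list that lay above the others in culture 1 included the calcium store gene Casq2, at 8.35, 5.87, 4.71 and 4.07. The myosin light chain gene Myl11 did so too, at 11.02, 9.22, 7.31 and 7.23. Others did not, such as the sarcomere gene Myot, at 5.26, 6.05, 5.47 and 7.75, lowest in culture 1. The muscle gene Jsrp1 was highest in culture 2, at 12.48, 13.54, 10.54 and 10.99. Its probe thus had the split of cultures 1 and 2 over 1 unit above cultures 3 and 4 that was described for Dlx3. These genes outside the list were named after their values were seen.

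Smooth muscle and pericyte genes were detected in every culture for 6 of 8, beside 65.1% of all genes, with Acta2 at 15.86, 15.74, 15.74 and 15.35 (15.67 ± 0.22). Acta2 and Tagln (13.12 ± 0.24) are also expressed by cultured fibroblasts. Cnn1 was the dimmest and had the widest spread, at 7.30, 6.59, 6.14 and 6.43 (6.62 ± 0.49, and 0.23 over cultures 2 to 4), and the contractile myosin gene Myh11 was detected on 3 arrays.

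Chondrocyte genes set culture 1 apart more than any other list described here. Of 11 genes, 8 were detected in every culture, beside 65.1% of all genes. The type II collagen gene Col2a1, the main collagen gene of cartilage, gave 9.87, 15.32, 15.84 and 15.11 (14.04 ± 2.79, and 0.37 over cultures 2 to 4). Col9a1, which encodes a chain of type IX collagen on the surface of cartilage fibrils, gave 10.41, 15.91, 16.50 and 15.37 (14.55 ± 2.80, and 0.57 over cultures 2 to 4). The second Col9a1 probe gave 5.23, 12.03, 12.42 and 11.46, with culture 1 again lowest. The first 30 bases of the Col2a1 probe, at chr7:136679416-136679475 on the minus strand of rn4, and of both Col9a1 probes, at chr9:22990736-22990795 and chr9:22989975-22990034 on the plus strand, are shown because these probes differ in sequence and gave the same split.
Col2a1: atcatcgagtaccgatcacagaagacctca
Col9a1, brighter probe: gtacgttctaagataagtcgtcatgttaaa
Col9a1, dimmer probe: ccagcctcttgcacccttcaggcaggtcaa

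Col9a2 had the largest SD of the list, at 9.71, 15.51, 16.12 and 14.78 (14.03 ± 2.93, and 0.67 over cultures 2 to 4), and Col9a3 gave 9.60, 14.98, 15.60 and 13.65 (13.46 ± 2.70, and 1.00 over cultures 2 to 4). Hapln1, the link protein gene of cartilage, gave 8.04, 11.88, 12.67 and 11.07 (10.92 ± 2.03, and 0.80 over cultures 2 to 4), and Comp, an oligomeric matrix protein gene of cartilage and tendon, gave 11.52, 13.36, 14.38 and 12.96 (13.05 ± 1.18, and 0.73 over cultures 2 to 4). Acan, which encodes the large proteoglycan aggrecan, was the dimmest, at 6.28, 8.18, 9.14 and 7.69 (7.82 ± 1.19, and 0.74 over cultures 2 to 4). In all 7 of these genes culture 1 lay over 1 unit below each other culture, beside 3.98% of all detected genes, and culture 3 was the highest, beside 19.3%. The difference of culture 1 from the mean of the others was -5.55 for Col2a1, -2.05 for Acan and, as a median over the 8 detected genes, -4.49. Sox9, the transcription factor that drives these genes in cartilage, gave on its brightest probe 11.05, 11.30, 11.35 and 10.80 (11.12 ± 0.26), with culture 4 lowest. Its other probes did not give 1 order, since one of them, at 7.87, 8.71, 9.03 and 8.82, was lowest in culture 1 and highest in culture 3, one was lowest in culture 1, at 6.06, and one was lowest in culture 3, at 9.87. Col10a1, the gene of hypertrophic cartilage, and Matn3 were detected on no array, and Matn1 was detected on 3. In bulk RNA, fewer cells of a type and less RNA per cell cannot be told apart. The median SD of the list was 2.36 over all cultures and 0.70 over cultures 2 to 4, against 0.29 and 0.17 for all detected genes.

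**Figure D4:**
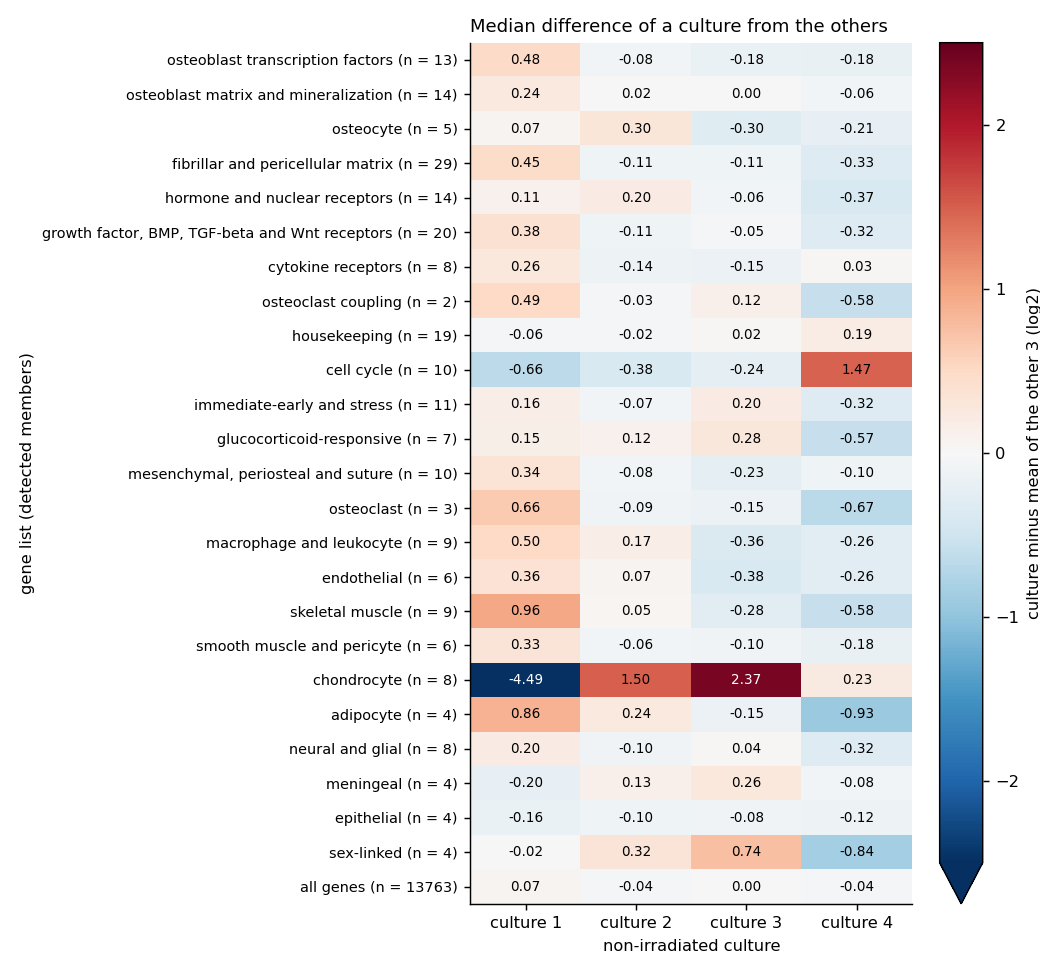
Median over the detected genes of each list of the difference, in log2 units, between a culture and the mean of the other 3, with the number of genes in parentheses. The chondrocyte list reads -4.49 in culture 1 and 2.37 in culture 3, the cell cycle list reads 1.47 in culture 4, and the values over all genes lie between -0.04 and 0.07.

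Of 9 adipocyte genes, 4 were detected in every culture, or 8 with the less strict flag, with Lep, Plin1 and Cidec on none and Adipoq on 2. Pparg, the adipogenic nuclear receptor gene, varied most, at 9.67, 8.81, 8.24 and 7.46 (8.54 ± 0.93). Lpl was the brightest, at 11.63, 11.07, 11.39 and 10.45 (11.14 ± 0.51), and Cd36 the dimmest, at 7.05, 7.66, 7.11 and 6.32 (7.03 ± 0.55). All 4 were lowest in culture 4, beside 31% of all detected genes, with a median difference from the others of -0.93.

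The neuronal genes Rbfox3 and Snap25 were detected on no array, whereas 8 of the 10 neural and glial genes were detected in every culture, beside 65.1% of all genes. S100b, a gene of glia and of chondrocytes, was the brightest and had the widest spread, at 12.57, 14.28, 14.66 and 12.99 (13.62 ± 1.00). Culture 1 was lowest and culture 3 highest for S100b, the same order of extremes as for the cartilage collagens. Map2 gave 7.36, 7.36, 7.47 and 7.32 (7.38 ± 0.07), and Gfap was the dimmest, at 5.47, 4.77, 4.89 and 4.31 (4.86 ± 0.48, and 0.31 over cultures 2 to 4).

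For the meninges, which line the inner face of the calvaria, 4 of 5 genes were detected in every culture and Aldh1a2 on none. Zic1 gave 12.61, 13.12, 13.19 and 12.98 (12.97 ± 0.26, and 0.11 over cultures 2 to 4) and Foxc1, also a factor of skull mesenchyme, gave 12.71 ± 0.16. Cldn11 varied most, at 9.20, 8.24, 7.41 and 6.63 (7.87 ± 1.10), and Ptgds was the dimmest, at 5.27, 5.40, 5.62 and 5.44 (5.43 ± 0.14). Of 8 epithelial genes, 4 were detected in every culture, or 7 when the signal had only to exceed the 95th percentile of the negative controls, and Epcam and Cldn4 on none. Cdh1 gave 6.61, 7.86, 8.43 and 9.38 (8.07 ± 1.16, and 0.77 over cultures 2 to 4), and Krt5 gave 4.66, 5.01, 5.10 and 5.06 (4.96 ± 0.20, and 0.05 over cultures 2 to 4). Krt18, a keratin gene that stromal cells also express, gave 9.16, 7.16, 6.94 and 7.23.

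The sex of the pups is not given in the labels. Xist, the transcript of the inactive X chromosome, was detected in every culture, at 13.52, 11.46, 11.52 and 12.37 (12.22 ± 0.96, and 0.51 over cultures 2 to 4). The Y-linked genes Ddx3y (6.02, 6.60, 6.79 and 5.66), Eif2s3y (9.47, 9.60, 9.85 and 8.10) and Kdm5d (6.94, 7.39, 8.05 and 6.59) were detected in every culture as well. Transcripts of both kinds were thus measured in each culture. The probes of Uty and Usp9y were detected on no array.

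Over all 13763 detected genes the median SD between cultures was 0.29, and over cultures 2 to 4 it was 0.17. The spread on the array itself was smaller. For 1248 detected probes printed 10 times, the median SD between spots of one array was 0.05, against 0.25 between cultures and 0.12 between cultures 2 to 4. Bright probes varied less, since the median SD was 0.34 for the 6243 dimmest detected probes and 0.22 for the 6242 brightest. An SD over 1 was found for 274 detected genes (1.99%). Of the 420 detected probes with an SD over 1, culture 1 was the furthest from the median for 297, culture 2 for 46, culture 3 for 5 and culture 4 for 72.

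**Figure D5:**
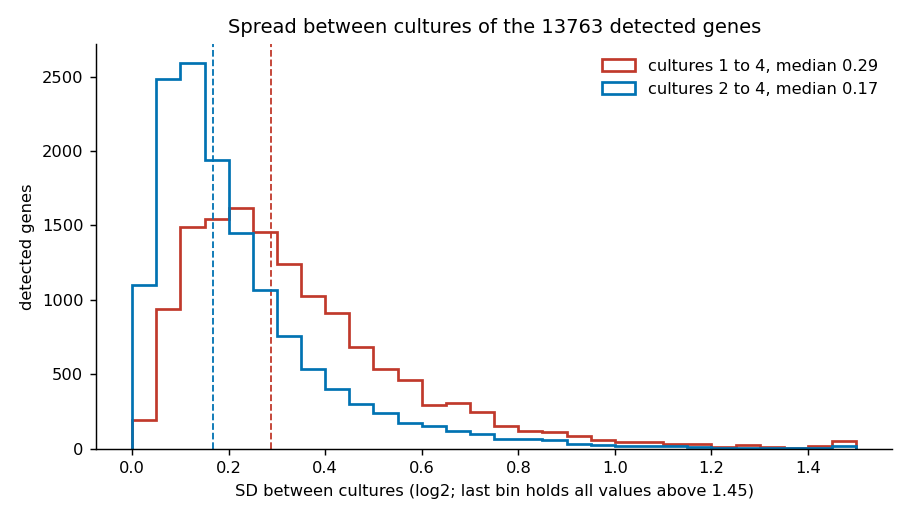
Number of detected genes by their SD between cultures in log2 units, over all 4 cultures (red) and over cultures 2 to 4 (blue), with dashed lines at the medians. The medians are 0.29 and 0.17, and the curve over cultures 2 to 4 lies to the left.

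The 10 genes with the largest SD were Cnmd, Col9a2, Col9a1, Col2a1, Col11a2, Col9a3, Thbs4, Tfcp2l1, Mia and Cmtm5. Cnmd, which encodes the cartilage protein chondromodulin, led with 7.26, 14.43, 15.15 and 13.19 (12.51 ± 3.59, and 0.99 over cultures 2 to 4). Col11a2, a gene of the cartilage collagen XI, gave 9.43, 14.70, 15.46 and 13.99 (13.40 ± 2.71, and 0.74 over cultures 2 to 4), and Mia, a secreted protein gene of cartilage, gave 7.67, 12.06, 12.94 and 11.40 (11.02 ± 2.32, and 0.77 over cultures 2 to 4). Tfcp2l1 gave 4.61, 9.25, 9.89 and 7.75 (7.87 ± 2.36, and 1.10 over cultures 2 to 4), and Cmtm5 gave 6.20, 10.70, 11.15 and 9.03 (9.27 ± 2.24, and 1.12 over cultures 2 to 4). In 9 of the 10, culture 1 was lowest and culture 3 highest. The exception was Thbs4, a matrix glycoprotein gene of tendon and muscle, at 15.19, 11.94, 11.22 and 9.26 (11.90 ± 2.47, and 1.39 over cultures 2 to 4), highest in culture 1 and lowest in culture 4.

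The 10 genes with the brightest probes were Rpl41, Myl6, Rps18, Rps19, Rps10, Rps20, Rplp0, Rps28, Rpl37a and Rps21, of which all but Myl6, a non-muscle myosin light chain gene, encode ribosomal proteins. Rpl41 gave 18.99, 18.88, 19.34 and 19.34 (19.14 ± 0.24), and the SDs of the 10 lay between 0.13 and 0.25. For 3976 genes with at least 2 detected probes, the brightest pair named the same furthest culture, in the same direction, in 32.3%, and for the 55 of them with an SD over 1 on the brightest probe it did so in 54.5%.

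The genes given next were chosen for their distance in one culture, so they illustrate these differences and lend them no further support. Of the genes furthest above the others in culture 1, the mesoderm factor Meox1 gave 8.32, 4.36, 4.60 and 4.49, Gldn, known from myelinating Schwann cells, gave 12.49, 9.15, 9.03 and 8.90, and the endothelial phosphatase gene Ptprb gave 9.08, 5.59, 4.72 and 5.32. For Meox1 and Gldn the SD over cultures 2 to 4 was 0.12 and 0.13. Of those furthest below the others in culture 4, the chemokine gene Cxcl12 gave 10.97, 9.27, 8.27 and 7.21, the Wnt antagonist gene Sfrp1 gave 10.53, 9.48, 8.29 and 5.97, and the interleukin-1 receptor antagonist gene Il1rn gave 12.14, 10.51, 9.45 and 7.69. In these genes culture 1 was also the highest. Of those furthest above the others in culture 4, Pbk, a mitotic kinase gene, gave 4.42, 6.32, 6.32 and 8.06, the histone chaperone gene Asf1b gave 5.60, 6.98, 7.25 and 8.93, and the kinetochore gene Cenpf gave 5.67, 6.99, 6.83 and 8.81, with culture 1 lowest in each.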

How the data were processed

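Total RNA of 4 non-irradiated cultures was hybridized to single-color Agilent arrays. The authors scanned them with Agilent Feature Extraction 11.0.1.1 and deposited spot intensity values, already background-corrected, and a log2 table of 24029 probes that the authors quantile normalized over all 8 arrays, used here only as an alternative. Of the series-wide table, 0 value columns of unknown origin were left out. Here, control spots and 457 to 571 outlier spots per array were removed, repeated spots were averaged per probe, and log2 intensities were quantile normalized over the 4 arrays (Python 3.11.15, numpy 2.4.6, pandas 2.3.3). normexp correction used limma 3.58.1 in R 4.3.3 with an offset of 50. Symbols came from RefSeq for 30650 probes (21184 by accession, 9060 by name, 406 by synonym), and 14948 kept the name on the array. Named genes were the 5 markers, members of the lists (every culture given for the brightest, the dimmest and the most variable member), the 10 genes with the largest SD and the 10 brightest. The members and lists were chosen with earlier results of these data known. One group was described, so no test between groups was run. The steps were tested on simulated data. Detection flags, background correction, normalization, the choice of probe and the arrays used were varied. Array number limits the precision of all values. Some members of the lists are not reported here by name.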

Additional observations from a re-analysis of the deposited data

Results flagged for a closer look

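In a group of 4, a culture was looked at again when its gap to the nearest other culture exceeded Dixon's critical share of the whole range of the 4 values. Chance alone gives this for about 5% of genes. The genes examined were the 5 markers, the brightest, dimmest and most variable list members, and the 10 most variable and 10 brightest genes. Of these 86, 5 (5.81%) passed, and culture 1 was the distant culture in each. Because the 86 were partly picked by their spread, the share of 5% is not a proper background for them. Culture 1 was lowest for Cd14, where the ratio was 0.967, for Gusb, where it was 0.889, and for Col2a1, where it was 0.878. It was highest for Csf1 (0.918) and Igf2r (0.896). Over all 13763 detected genes, 1446 (10.5%) passed, and culture 1 was the distant one for 76.0% of these.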

How the results depend on the processing

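Of 430 values recomputed for 46 results under these alternatives, 397 stayed close and 33 moved. Close meant within the SD between cultures for the signals of the 5 markers. For all other results, which were counts, SDs and list medians, it meant within 1.5 times. Counts and SDs cannot change sign. Only the median differences of the chondrocyte, skeletal muscle and cell cycle lists could readily do so, and none did. With the scanner's positive-and-significant flag, detected genes numbered 5 in the osteoclast list, 14 in the macrophage list and 8 in the adipocyte list. With the 95th percentile of the negative controls they numbered 5 in the osteoclast, 14 in the macrophage and 7 in the epithelial list. After normexp and quantile normalization, the median SD of probes was 0.1851, 119 genes had an SD over 1, and the mean log2 signal was 18.35 for Col1a1 and 6.63 for Sp7. In the deposited log2 values, 139 genes had an SD over 1, and the signal was 17.77 for Col1a1, 6.03 for Sp7 and 8.78 for Alpl. As a mean of all detected probes, the signal was 17.66 for Col1a1 and 8.76 for Alpl. The cause of these moves was not tested, apart from the choice of other probes in the last.

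Leaving out each culture in turn, the median SD lay between 0.1837 and 0.3132 for probes and between 0.1709 and 0.3092 for genes. The number of genes with an SD over 1 lay between 116 (without culture 1) and 524 (without culture 2), and was 456 without culture 3. The mean signal of Col1a1 lay between 18.16 and 18.27. The SD of Alpl was 0.41 without culture 4 and that of Runx2 was 0.23 without culture 1. Without culture 2, 5 muscle genes lay over 1 unit above the others in culture 1. The chondrocyte median of culture 1 stayed between -4.95 and -4.06, and the cell cycle median of culture 4 was 1.38 or higher. No paired analysis was possible because only the non-irradiated arrays enter. Each culture has 1 array, so culture and array cannot be told apart. Signal near background limits what can be said of all dim genes. Among them are Sp7, Sost, Fgf23, Twist2, Junb, Pecam1, Ptger1, Insr, C1qa, Axin2, Gfap and Krt5.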
